A study of Mus musculus with 2 samples.

Results

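Matrix metalloproteases, ADAM and ADAMTS proteases and their tissue inhibitors were examined in astrocytes sorted from the cortex after middle cerebral artery occlusion (MCAO). The members are all genes whose symbol on the array begins with Mmp, Adam or Timp followed by a number, or with Adamts. This also takes in the ADAMTS-like genes. Only probe sets with 1 gene symbol were used. They were 80 of 19494 named genes, each with 1 probe set, and comprised 21 MMP, 32 ADAM, 18 ADAMTS, 5 ADAMTS-like and 4 TIMP genes. Astrocytes were selected with an antibody against ACSA-2, an astrocyte surface antigen, and magnetic beads, from the ipsilateral cortices on postoperative day (POD) 15. The MCAO + exercise group had a running wheel for 15 days after MCAO, and the MCAO + non-exercise group was housed without one. Mice of both groups were males of the C.B-17/Icr-+/+Jcl strain, labelled as 7 weeks old, had permanent MCAO and BrdU injections, and had been acclimatized to a wheel before surgery. For each group RNA of 4 extracts, each from 2 or 3 mice, was mixed into 1 pool, which was hybridized to a single Clariom S array for mouse. As each group had 1 array, the spread between animals is unknown, no difference was tested and no error can be given. All 10 astrocyte markers on a fixed list were above background on both arrays. But so were all measured markers of oligodendrocytes and their precursors, microglia and macrophages, endothelium, and mural cells and fibroblasts. Of 8 neuron markers, 7 were above background on both arrays. The same held for 14043 of all 19494 named genes.

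Metalloproteases of these families hold a zinc ion in their active site. Most MMPs are secreted and cut collagens, gelatin, laminins and other matrix proteins, and the membrane-type MMPs do so at the cell surface. ADAM proteases are membrane proteins that shed the outer parts of other membrane proteins, such as TNF, APP, Notch and cadherins, whereas several ADAMs without an active protease site act in cell adhesion. ADAMTS proteases are secreted, and several cut the proteoglycans of the perineuronal matrix. ADAMTS-like proteins resemble them but have no protease domain. TIMPs block these enzymes to different extents. In the ischemic brain MMPs are known for opening the blood-brain barrier early and for remodelling matrix and vessels later.

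Of the 80 members, 44 were above background on both arrays, 8 on 1 array and 28 on neither. Of all 19494 named genes, 14043 were above it on both arrays, 1154 on 1 array and 4297 on neither. As background served the 25th percentile of the named genes on an array, a log2 intensity of 4.89 for MCAO + exercise and 5.08 for MCAO + non-exercise. A gene above it on at least 1 array was kept, which left 52 members and 15197 genes in all. Probe sets respond differently, so a level does not rank transcripts against each other. A level above this background does not by itself show expression. On both arrays 8 members were above the upper quartile of named genes, namely Timp2, Adamts1, Mmp12, Adam17, Adam10, Adam9, Mmp19 and Adamts4. Another 14 were above the median on both arrays, and 22 lay lower although above background on both.

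Of 19 ADAM genes known from sperm and testis, 13 were at background on both arrays. These 19 ranged from 3.20 to 6.43 with a median of 4.14 in MCAO + exercise, against 3.43 to 6.99 with a median of 4.44 in MCAO + non-exercise. Adam1b, Adam3, Adam4, Adam6a, Adam7 and Adam30 were above background on both arrays, so genes with no known role in astrocytes reached log2 values of up to 6.43 in MCAO + exercise and 6.99 in MCAO + non-exercise. The other 15 members at background were the MMPs Mmp1a, Mmp1b, Mmp7, Mmp17, Mmp20, Mmp21 and Mmp24, the ADAMs Adam28 and Adam33, the ADAMTS genes Adamts3, Adamts5, Adamts8, Adamts13 and Adamts18, and the inhibitor Timp1. Mmp1a and Mmp1b, Adam6a and Adam6b, and Adam26a and Adam26b are close copies, and their probe sets may not separate them.

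**Figure D1:**
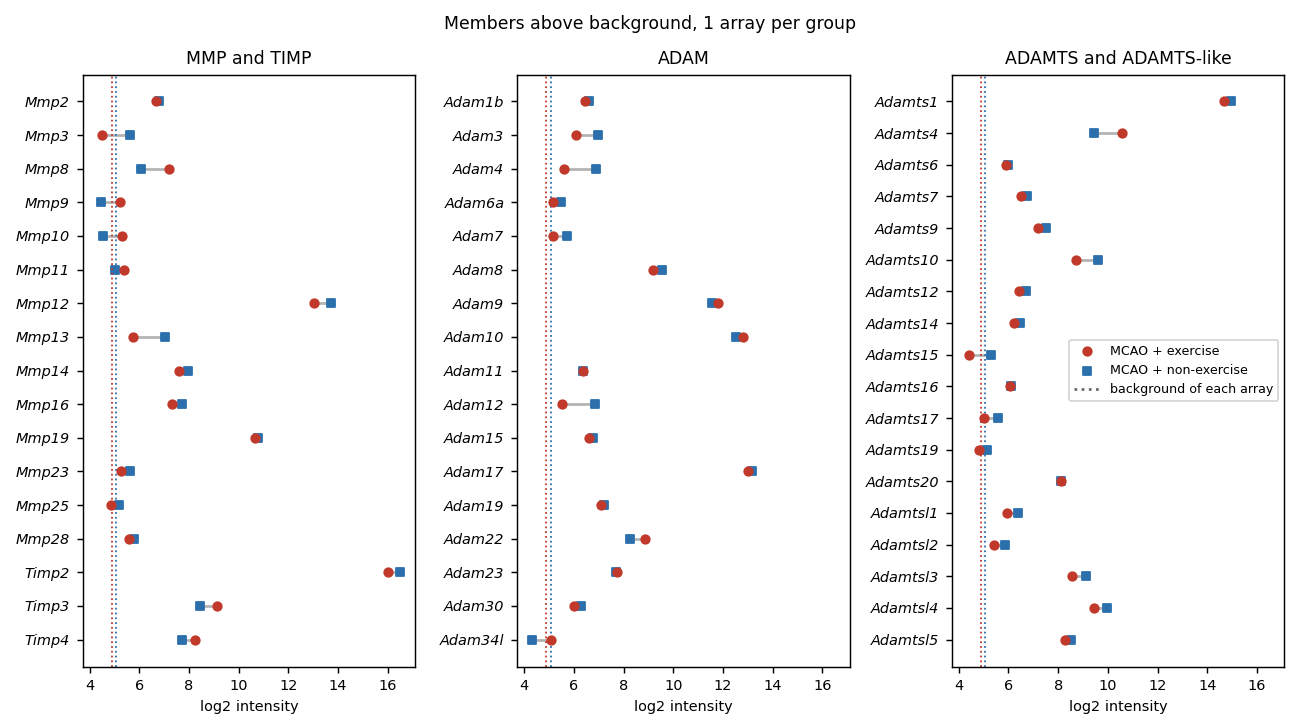
Log2 intensity of the 52 members above background on at least 1 array, in MCAO + exercise (red circles) and MCAO + non-exercise (blue squares), 1 array each, with the background of each array as a dotted line. For 39 of the 52 members the red circle lies left of the blue square, and the 13 others include Adamts4, Mmp8, Timp3, Timp4 and Adam22.

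A difference is the log2 intensity under the label MCAO + exercise from which the one under the label MCAO + non-exercise was subtracted, so a positive difference means a higher signal under the label MCAO + exercise. Of the 80 genes in the study's lists of upregulated and downregulated genes, 72 could be matched, and all 72 had the opposite direction by these labels. None of the members is among them, so which label is right cannot be settled from the members, and every direction given here would turn round with the labels. Of 52 kept members, 39 had a negative and 13 a positive difference, with a median of -0.26. Over all 15197 kept genes 46.5% were negative and the median was 0.04. This contrast depended in part on the level. Above the median level of named genes, 14 of 22 members were negative with a median of -0.22, against 37.8% of all genes and a median of 0.13. At or below it, 25 of 30 kept members were negative with a median of -0.28, against 61.9% of all kept genes and a median of -0.15. Median centring took 0.11 off every difference, and the members' median was then -0.37 against -0.07 for all kept genes. After quantile normalization the medians were -0.16 for the members and -0.0013 for all kept genes.

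A difference above 1 or under -1, a 2-fold change, was the threshold of the study. Adamts4 and Mmp8 were higher by more than 1 on the array labelled MCAO + exercise, and Adam12, Adam4, Mmp13 and Mmp3 were lower by more than 1. These were 2 and 4 of 52 kept members, or 3.85% and 7.69%, against 3.77% and 2.36% of all kept genes. Of these genes, Adamts4 alone lay above the median level of named genes, where 4.72% of kept genes were higher and 1.13% lower by more than 1. The other 5 lay at or below it, where 2.07% of kept genes were higher and 4.57% were lower by more than 1. Which members passed depended on the scaling. After quantile normalization 1, Mmp8, was higher and 4 were lower, with Adamts4 at 0.93, Mmp3 at -0.96 and Adamts10 at -1.05. After median centring 2 were higher and 5 lower, with Adam3 added at -1.02, and with an offset of 32 added before log2 Adamts4 alone passed and 0 members were lower by more than 1.

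**Figure D2:**
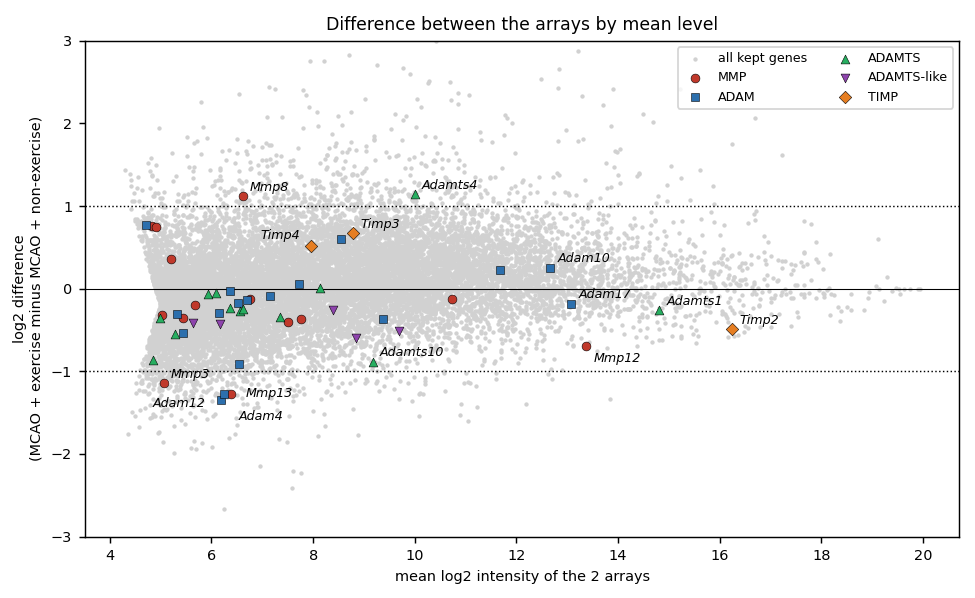
Log2 difference (MCAO + exercise minus MCAO + non-exercise) against the mean log2 intensity of both arrays, for the kept members by family and for all kept genes in grey. Dotted lines mark 1 and -1, 13 genes beyond 3 either way lie outside the plot, and of the members past the dotted lines Adamts4 alone lies above the median level of named genes.

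Among the MMPs, 14 of 21 were kept, 10 of them with a negative and 4 with a positive difference, and their median was -0.26, or -0.14 after quantile normalization and with the offset of 32. The collagenases split. Mmp8, the collagenase of neutrophils, had a log2 value of 7.18 in MCAO + exercise and 6.06 in MCAO + non-exercise, a difference of 1.12 or 2.17-fold. Mmp13, which cuts type II and other fibrillar collagens, had 5.75 in MCAO + exercise and 7.02 in MCAO + non-exercise, a difference of -1.27, or 2.41-fold lower.

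The neutrophil markers measured beside Mmp8 were mostly higher too. Of 8 kept markers on a list of 10, 6 had a positive difference, 4 were higher by more than 1, and the median was 0.97. Of all kept genes, 3.77% were higher by more than 1. Ltf, which is among these 4 markers, and Elane were above background on the array labelled MCAO + exercise only. Their differences thus rest on a value at background. Mpo, above background on both arrays, had a difference of -0.54. Ngp, a neutrophil granule protein, had 10.11 in MCAO + exercise and 7.29 in MCAO + non-exercise. The summed intensity of the kept markers was 27599 in MCAO + exercise and 27707 in MCAO + non-exercise, which is set mainly by the receptor Csf3r with its difference of -0.15, Camp was at background on both arrays, and Ly6g was not analysed here. Their part in the Mmp8 value was not tested. In such bulk samples fewer cells of a type and less RNA per cell cannot be told apart.

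The stromelysins lay close to background. Mmp3, which also activates other pro-MMPs, had 4.49 in MCAO + exercise, where it was not above background, and 5.64 in MCAO + non-exercise. Against the background level of the MCAO + exercise array it was at least 1.67-fold lower there, so its bound does not reach the threshold. Mmp10 had 5.29 in MCAO + exercise and 4.54 in MCAO + non-exercise, and Mmp11 had 5.38 and 5.03 in the same order. Both were above background on the array labelled MCAO + exercise only, by bounds of at least 1.16-fold and 1.23-fold.

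The gelatinases, which degrade the basement membrane and are the MMPs most often studied in stroke, gave low signals. Mmp2 had 6.68 in MCAO + exercise and 6.81 in MCAO + non-exercise, a difference of -0.13. Mmp9 had 5.21 in MCAO + exercise and 4.45 in MCAO + non-exercise, where it was at background, so its bound is at least 1.10-fold higher.

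Mmp12, the macrophage elastase, was bright on both arrays. Its log2 value was 13.03 in MCAO + exercise and 13.72 in MCAO + non-exercise, a difference of -0.69 or 1.62-fold lower. After quantile normalization it was -0.88. Markers of microglia and macrophages were high in both pools although the cells were sorted for ACSA-2. Of 9 measured markers on a list of 10, all were above background on both arrays and 6 had a negative difference, with a median of -0.19. Among all named genes above the median level, 37.8% were negative, with a median of 0.13. The summed intensity of the markers was 569222 in MCAO + exercise and 645297 in MCAO + non-exercise, and Cd68 was not analysed here. Their part in the Mmp12 value was not tested.

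The remaining kept MMPs had differences between -0.40 and -0.12. Mmp14, the membrane-type enzyme that activates pro-MMP2 together with Timp2, had 7.58 in MCAO + exercise and 7.95 in MCAO + non-exercise. Mmp16, another membrane-type enzyme, had 7.31 in MCAO + exercise and 7.72 in MCAO + non-exercise. Mmp19 was above the upper quartile of named genes with 10.67 in MCAO + exercise and 10.79 in MCAO + non-exercise. Mmp23 and Mmp28 were near background, with differences of -0.35 and -0.20, and Mmp25, an enzyme of leukocytes, was above background in MCAO + non-exercise only. The 3 kept membrane-type MMPs, Mmp14, Mmp16 and Mmp25, thus had negative differences. They also did after median centring and quantile normalization, where their medians were -0.47 and -0.41. Mmp25 was kept only through the array on which it was higher, so its sign adds nothing.

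Several of these MMP genes are neighbours. In the RefSeq annotation of GRCm38.p6, Mmp13, Mmp12, Mmp1b, Mmp3, Mmp1a, Mmp10, Mmp8, Mmp27, Mmp20 and Mmp7 follow each other on chromosome 9 with no other protein-coding gene between them. Of these 10 genes Mmp27 was not analysed here, and 5 were kept, namely Mmp13, Mmp12, Mmp3, Mmp10 and Mmp8. The first 3 of these in chromosomal order had differences of -1.27, -0.69 and -1.15, and the next, Mmp10 and Mmp8, had differences of 0.75 and 1.12. The signs were the same after median centring and quantile normalization. Only Mmp13, Mmp12 and Mmp8 were above background on both arrays. Mmp3 and Mmp10 were kept only through the array on which each was higher, so their signs add nothing on an order along the run. Mmp1b and Mmp1a, which lie among the kept genes, were at background on both arrays, with differences of 0.62 and 0.30.

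**Figure D3:**
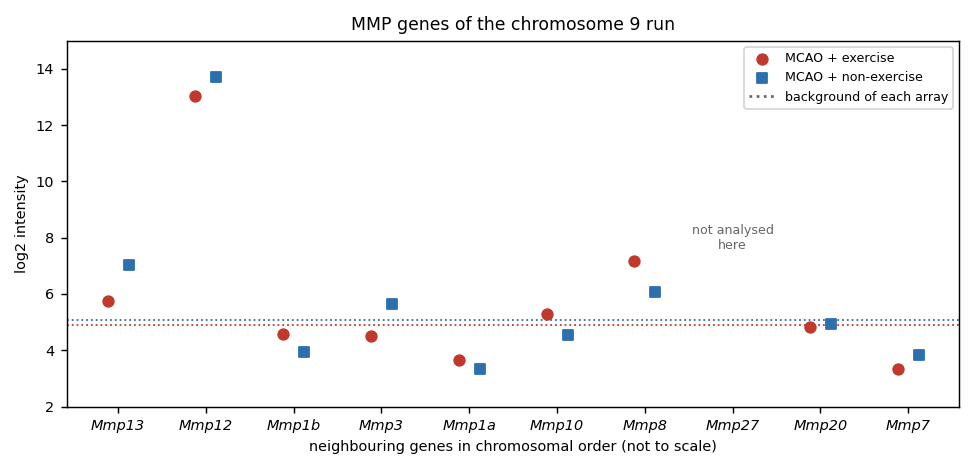
Log2 intensity of the neighbouring MMP genes on chromosome 9, in chromosomal order and not to scale, in MCAO + exercise (red circles) and MCAO + non-exercise (blue squares), with the background of each array as a dotted line. Of the kept genes, Mmp13, Mmp12 and Mmp3 lie lower and Mmp10 and Mmp8 higher on the array labelled MCAO + exercise. Mmp3 and Mmp10 were each above background only on the array where they lie higher, and Mmp27 was not analysed here.

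Of the genes of the run above background on both arrays, Mmp13 and Mmp12 had negative differences and Mmp8 a positive one. The promoters of all 5 kept genes of the run are shown. They were taken by symbol from a RefSeq promoter table for GRCm38.p6, which held 49 of the 80 members, and are cut to 120 bases before and 20 bases after the start, 5′ to 3′ on the strand of the gene. Capitals mark the heptamer TGACTCA or its reverse complement TGAGTCA, known as the binding letters of AP-1, the factor made of Jun and Fos proteins. For Mmp12, which has several starts in the table, the window with a match is shown.
Mmp13 (chr9:7272394-7272533, + strand): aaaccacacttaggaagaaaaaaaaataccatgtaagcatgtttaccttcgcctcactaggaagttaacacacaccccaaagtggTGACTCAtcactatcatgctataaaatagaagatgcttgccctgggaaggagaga
Mmp12 (chr9:7347254-7347393, + strand): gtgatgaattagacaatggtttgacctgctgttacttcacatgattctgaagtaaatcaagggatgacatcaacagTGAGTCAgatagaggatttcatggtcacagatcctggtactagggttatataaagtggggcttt
Mmp3 (chr9:7445702-7445841, + strand): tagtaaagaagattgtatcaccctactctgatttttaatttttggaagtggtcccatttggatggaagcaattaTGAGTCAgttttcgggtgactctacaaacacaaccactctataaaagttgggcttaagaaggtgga
Mmp10 (chr9:7502222-7502361, + strand): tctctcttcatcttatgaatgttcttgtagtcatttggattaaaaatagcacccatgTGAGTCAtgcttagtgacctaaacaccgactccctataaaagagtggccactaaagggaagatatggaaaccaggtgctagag
Mmp8 (chr9:7558309-7558448, + strand): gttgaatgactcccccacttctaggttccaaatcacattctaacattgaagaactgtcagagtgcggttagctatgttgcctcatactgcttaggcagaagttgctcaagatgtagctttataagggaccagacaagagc

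The heptamer began 35 bases before the start in Mmp13, 44 in Mmp12, 46 in Mmp3 and 63 in Mmp10, and it was not in the window of Mmp8. Over the full windows of 250 bases before and 50 bases after the start, searched on both strands, it was present for 7 of the 9 genes of the run that are members, counting any start. It was present in 3 of 40 members elsewhere with a promoter (7.5%) and, counted in the same way, in 5.95% of all 27025 genes in the table. By single windows the share was 5.20% of 32851. Among members, 6 of 33 kept genes and 4 of 16 genes at background held it. A match is a description of the letters and not a site in use.

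Of 9 ADAM genes with an active protease that are known from tissues other than testis, 7 were kept, and Adam28 and Adam33 were at background. Apart from Adam12, the differences of the 7 lay between -0.37 and 0.26. Adam10, a sheddase of Notch, APP and N-cadherin, had 12.79 in MCAO + exercise and 12.54 in MCAO + non-exercise. Adam17, the sheddase that releases TNF, had 12.99 in MCAO + exercise and 13.17 in MCAO + non-exercise. The signs for Adam10 and Adam17 were opposite, as they were after median centring and quantile normalization, where Adam10 had 0.15 and 0.09 and Adam17 -0.29 and -0.37. Adam9 had 11.78 in MCAO + exercise and 11.56 in MCAO + non-exercise. Adam8, which myeloid cells express, had 9.18 in MCAO + exercise and 9.55 in MCAO + non-exercise, and the part of the macrophage markers given beside Mmp12 in this value was not tested.

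Adam12 had the lowest difference of any kept member. This protease, known from muscle and mesenchymal cells, had 5.52 in MCAO + exercise and 6.87 in MCAO + non-exercise, a difference of -1.35, or 2.55-fold lower. With an offset of 32 before log2 the difference was -0.93. Both log2 values of Adam12 lay within the ranges of the sperm and testis ADAM genes, of which Adam4 had a difference of -1.28. Markers of mural cells and fibroblasts, measured beside Adam12 and Mmp13, had negative differences for 6 of 8 genes, with a median of -0.82. Among all named genes above the median level, where these markers lay, 37.8% were negative. Col1a1, the main chain of type I collagen, had 7.07 in MCAO + exercise and 8.10 in MCAO + non-exercise. The summed intensity of the list was nevertheless 14402 in MCAO + exercise and 12232 in MCAO + non-exercise, since Rgs5 had a difference of 0.86, and all 8 markers were above background on both arrays. Their part in the Adam12 and Mmp13 values was not tested.

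Adam15 and Adam19, which share the sheddase domain plan with Adam12, had differences of -0.13 and -0.09. Adam11, Adam22 and Adam23, which have no active protease and are receptors of secreted LGI proteins at synapses, were above background on both arrays. Adam22 had 8.85 in MCAO + exercise and 8.25 in MCAO + non-exercise, a difference of 0.60. Adam23 had 7.75 in MCAO + exercise and 7.69 in MCAO + non-exercise, and Adam11 had 6.35 and 6.37 in the same order. The signs for Adam23 and Adam11 each turned under 1 of the scalings, to -0.05 for Adam23 after median centring and 0.09 for Adam11 after quantile normalization. Of 8 neuron markers measured beside Adam22, all kept, 6 had a positive and 2 a negative difference, with a median of 1.08. By more than 1, 4 were higher and 2 lower, against 3.77% and 2.36% of all kept genes. Their summed intensity was 6165 in MCAO + exercise and 5677 in MCAO + non-exercise. The part of these markers in the Adam22 value was not tested.

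All 6 kept sperm and testis ADAM genes had negative differences, with a median of -0.42, or -0.25 after quantile normalization. All 6 lay at or below the median level of named genes, where 61.9% of all kept genes were negative. Adam4 had 5.61 in MCAO + exercise and 6.89 in MCAO + non-exercise, a difference of -1.28, or 2.43-fold lower. Adam3 had 6.07 in MCAO + exercise and 6.99 in MCAO + non-exercise, a difference of -0.92. The other 4 had differences between -0.54 and -0.18. These genes have no known function in the cells sorted here. Adam34l, a relative outside that list, was above background in MCAO + exercise only, with a bound of 1.01-fold.

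Among 18 ADAMTS genes, 13 were kept, 11 with a negative and 2 with a positive difference, and the median was -0.26, or -0.16 after quantile normalization. The proteoglycanases include the pair with the clearest signals. Adamts1, which cuts aggrecan and versican, had 14.67 in MCAO + exercise and 14.94 in MCAO + non-exercise, a difference of -0.26. Adamts4, a main aggrecanase that also cuts brevican and neurocan, had 10.56 in MCAO + exercise and 9.42 in MCAO + non-exercise, a difference of 1.14 or 2.20-fold. It was the single member past the threshold that lay above the upper quartile of named genes on both arrays. Oligodendrocytes are also known to express Adamts4, and markers of these cells were higher in MCAO + exercise for 7 of 7 measured genes on a list of 8, with a median of 0.92. Their summed intensity was 1126870 in MCAO + exercise and 632510 in MCAO + non-exercise, and all were above background on both arrays. Astrocyte markers had positive differences for 10 of 10 genes, with a median of 0.66 and a summed intensity of 125163 in MCAO + exercise and 104446 in MCAO + non-exercise. Of all named genes above the median level, where all these markers lay, 62.1% had a positive difference, with a median of 0.13. The part of either marker list in the Adamts4 value was not tested.

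The other proteoglycanases did not follow Adamts4. Adamts9 had a difference of -0.34, and Adamts20 had 8.13 on both arrays, with a difference of 0.01 that turned to -0.10 after median centring. Adamts15 was above background in MCAO + non-exercise only, with a bound of at least 1.31-fold lower in MCAO + exercise. Adamts5, the other main aggrecanase, was at background with 3.75 in MCAO + exercise and 3.72 in MCAO + non-exercise, and Adamts8 was at background too.

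Adamts10, which binds fibrillin microfibrils, had 8.73 in MCAO + exercise and 9.61 in MCAO + non-exercise, a difference of -0.89 or 1.85-fold lower. Adamts7 and Adamts12, which cut cartilage oligomeric matrix protein, had differences of -0.25 and -0.27, and Adamts14, a procollagen N-proteinase, one of -0.23. Adamts13, the protease of von Willebrand factor that liver stellate cells make, was at background with 3.93 in MCAO + exercise and 4.20 in MCAO + non-exercise. The other kept ADAMTS genes, Adamts6, Adamts16, Adamts17 and Adamts19, lay under the median level and had differences between -0.55 and -0.05, and those of Adamts6 and Adamts16 were positive after quantile normalization, both at 0.09.

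All 5 ADAMTS-like genes were above background on both arrays and all had negative differences, from -0.60 to -0.26 with a median of -0.43. Adamtsl4, which binds fibrillin and supports the lens zonule, had 9.44 in MCAO + exercise and 9.95 in MCAO + non-exercise. Adamtsl3 had 8.54 in MCAO + exercise and 9.14 in MCAO + non-exercise, and Adamtsl5 had 8.26 and 8.52 in the same order. Adamtsl1 and Adamtsl2 had differences of -0.43 and -0.42. The median of this small group was -0.54 after median centring and -0.37 after quantile normalization, and none of the genes reached the threshold.

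The TIMPs did not move together. Timp2, the inhibitor that also takes part in pro-MMP2 activation by Mmp14, had 16.00 in MCAO + exercise and 16.49 in MCAO + non-exercise, a difference of -0.49 or 1.40-fold lower. Timp3, which is bound to matrix and also inhibits Adam17 and several ADAMTS enzymes, had 9.12 in MCAO + exercise and 8.44 in MCAO + non-exercise, a difference of 0.67 or 1.60-fold. Timp4 had 8.22 in MCAO + exercise and 7.71 in MCAO + non-exercise, a difference of 0.52. The negative sign of Timp2 and the positive signs of Timp3 and Timp4 were kept after median centring and quantile normalization. Timp1, the inducible inhibitor that reactive astrocytes are known to secrete, was at background on both arrays, with 4.78 in MCAO + exercise and 3.92 in MCAO + non-exercise, so no fold is given. All 3 kept inhibitors stayed within the threshold.

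Genes that regulate these proteases, on a list of 23 of which 21 were measured and 20 kept, had 6 positive and 14 negative differences with a median of -0.12. A2m, the plasma protein that traps proteases, had 6.33 in MCAO + exercise and 7.35 in MCAO + non-exercise. Its difference of -1.02 was the single one past the threshold, or 5% of the kept regulators. Of all kept genes, 2.36% were lower by more than 1. At or below the median level of named genes, where A2m lay, the share was 4.57%. The tetraspanin Tspan15, a partner of Adam10, had 10.83 in MCAO + exercise and 9.83 in MCAO + non-exercise, a difference of 1.00 that did not pass. Frmd8, which stabilizes the iRhom proteins that carry Adam17 to the cell surface, had 10.39 in MCAO + exercise and 9.43 in MCAO + non-exercise, whereas the iRhom gene Rhbdf2 had a difference of 0.23. Reck, a membrane-anchored MMP inhibitor, had a difference of -0.09, the MMP inducer Bsg one of -0.11 and the plasminogen activator Plat one of 0.07.

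The 20 substrates on the list were all kept, with 9 positive and 11 negative differences and a median of -0.01. Nrg1, a growth factor precursor shed by ADAM proteases, had 5.72 in MCAO + exercise and 6.95 in MCAO + non-exercise, a difference of -1.23. It was the single substrate past the threshold, or 5% of the list. Nrg1 too lay at or below the median level of named genes, where 4.57% of kept genes were lower by more than 1. Bcan, the brevican core protein that Adamts4 cuts, had 11.40 in MCAO + exercise and 11.49 in MCAO + non-exercise. Vcan and Acan, further proteoglycans of this group, had differences of -0.75 and -0.68, whereas Ncan had 0.42 and the adhesion molecule Cdh2 had 0.86. Tnf, the classical substrate of Adam17, was bright on both arrays with 16.10 in MCAO + exercise and 16.03 in MCAO + non-exercise.

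**Figure D4:**
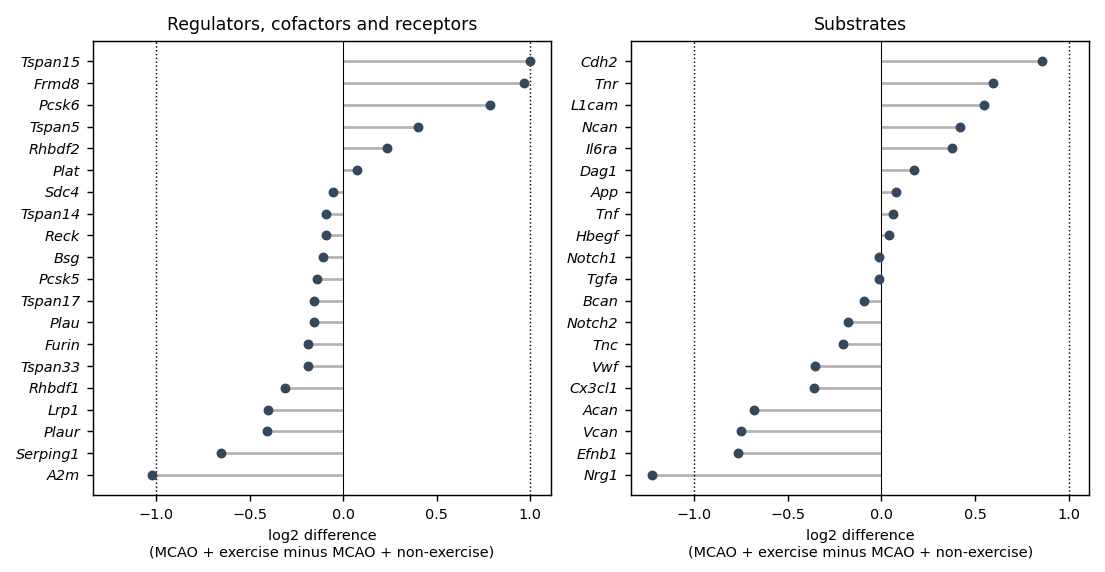
Log2 difference (MCAO + exercise minus MCAO + non-exercise) of the kept regulators (left) and substrates (right) of the proteases, 1 array per group, with dotted lines at 1 and -1. A2m at -1.02 and Nrg1 at -1.23 lie past the lines, and Tspan15 at 1.00 lies just under its line.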

How the data were processed

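RNA pools of sorted astrocytes were measured on 1 Clariom S array per group. Normalization by the authors used the GCCN-SST-RMA algorithm, which corrects for probe GC content, rescales signals and summarizes probe sets, and the values were deposited as linear intensity. Affymetrix Expression Console and RMA are named in the submitters' processing notes, and versions and a genome build were not given in the sources used here. The deposited intensities were linear, and log2 was taken of them. Their median was 106.4 for MCAO + exercise and 112.3 for MCAO + non-exercise. Of 22142 probe sets, 19527 had 1 gene symbol in the platform annotation. The other 2615, with no symbol or with several, were left out. The brightest probe set stood for a gene. Control probe sets were not analysed here, so the 25th percentile of each array replaced the negative control used by the study. A gene above background on 1 array was given a bound against the background of the other. Full values are given for members past the threshold, for the 10 kept members of highest mean level and for a fixed set of well-known members, and any member may be named. Members and gene lists were chosen with earlier results of these data known. With 1 array per group the precision is limited, and no test was made. The alternatives were other backgrounds (10th percentile, median, sperm and testis ADAM genes, both arrays, none), median centring, quantile normalization, an offset of 32, and the mean of probe sets. The step that applies the threshold was checked on simulated data, and the background was not part of that check. Python 3.11.15, NumPy 2.4.6, pandas 2.3.3 and matplotlib 3.10.9 were used.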

Additional observations from a re-analysis of the deposited data

How the results depend on the processing

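With 1 array per group no replicate could be left out, and no paired analysis was possible because each group has 1 array. Of 80 members, 22 were kept with a background at the median passed on both arrays, and 80 without a filter, against 52. With the background at the median, 1 member was higher and 0 were lower by more than 1, against 2 and 4. Quantile normalization left 1 higher (Mmp8), and an offset of 32 left 1 higher and 0 lower. The median difference of the kept members was -0.37 after median centring and -0.16 after quantile normalization, against -0.26. With members above background on 1 array at their bound, an alternative added after seeing the data, there were 2 higher and 3 lower. Adamts4 was kept under every background, but the backgrounds and the mean of probe sets cannot change its difference, as it has 1 probe set. Of the settings that do change it, it passed after median centring at 1.03 and with the offset at 1.10. After quantile normalization its difference was 0.93, under the threshold. Mmp8, Mmp13, Adam12 and Adam4 fell under the threshold with the offset, at 0.84, -0.92, -0.93 and -0.90, and were not kept with the background at the median. The cause of these changes was not tested. The sign of 2 kept members turned after median centring and of 4 after quantile normalization, all with differences between -0.07 and 0.06. Low signal over background limits the values of the 30 kept members at or below the median level.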
